A study of Homo sapiens with 6 samples.

Results

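The genes described here are the AP-1 and immediate early genes *FOS*, *FOSB*, *FOSL1*, *FOSL2*, *JUN*, *JUNB*, *JUND*, *EGR1*, *IER2* and *BATF3*. They were found by gene symbol, 10 genes of the 60651 in each table, and 9 of the 10 had enough counts to be tested, as did 22443 genes in all. Total RNA sequencing had been performed on 6 neuroblastoma libraries, 3 with titles reading EtOH (ethanol) and the tag Control, and 3 with titles reading Tet (tetracycline) and the tag Induction, the latter after 5 days of tetracycline per the labels. The labels differ on the cells. Titles name IMR575, a *MYCN*-amplified line, and the group tag is headed knockdown, whereas the protocol text, given for both groups, describes SK-N-SH cells with an inducible *MYCN* transgene under a tetracycline repressor, kept as single clones under G418 and blasticidin. The study also used an inducible *MYCN* shRNA in IMR-5/75 cells and a *MYCN* transgene in SK-N-AS cells, so that libraries are called here by label only. The labels do not say whether replicates were separate cultures. The study's methods give 3 independent biological replicates for its in vitro work unless noted otherwise. In either case p-values measure only the spread between these libraries.

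AP-1 is a pair of basic leucine zipper (bZIP) proteins bound to each other and to DNA. JUN proteins can pair among themselves, with FOS proteins, or with ATF and BATF proteins, whereas FOS proteins need a JUN partner. *FOS*, *JUN*, *EGR1* and *IER2* are immediate early genes. Resting cells transcribe them at a low level, and growth factors, stress or fresh medium switch them on within minutes through ERK and other kinases and through factors already present in the cell, such as SRF and CREB, after which the mRNAs decay rapidly. In neuroblastoma, AP-1 activity is best known from the mesenchymal cell state.

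RefSeq promoter sequences (GRCh38.p14, 250 bases before to 50 bases after the start) were found for 8 of the 10 genes, those other than *FOSL1* and *BATF3*. The 250 bases before the start of *JUN*, *JUND*, *FOS* and *EGR1* are shown. By the spread measure used below, *JUN*, *FOS* and *EGR1* differed most between libraries labelled EtOH and *JUND* differed little. Between libraries labelled Tet, the ratio of *JUND* was above those of *JUN*, *FOS* and *EGR1*. Capitals mark TGACG on either strand, the core of the cyclic AMP response element bound by CREB and ATF proteins, the longer forms TGACGTCA and TGACATCA, and the CArG box bound by SRF.
JUN (chr1:58784048-58784297, minus strand): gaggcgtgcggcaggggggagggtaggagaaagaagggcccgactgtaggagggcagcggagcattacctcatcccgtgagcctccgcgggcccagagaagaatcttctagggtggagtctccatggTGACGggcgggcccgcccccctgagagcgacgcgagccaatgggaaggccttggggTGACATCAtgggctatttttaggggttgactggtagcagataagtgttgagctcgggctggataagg
JUND (chr19:18281623-18281872, minus strand): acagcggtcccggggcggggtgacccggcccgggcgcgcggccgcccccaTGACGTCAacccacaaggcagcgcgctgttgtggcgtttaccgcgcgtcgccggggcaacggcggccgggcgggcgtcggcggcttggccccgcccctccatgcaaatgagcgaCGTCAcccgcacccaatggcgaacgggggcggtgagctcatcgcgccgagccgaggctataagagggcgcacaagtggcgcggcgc
FOS (chr14:75278578-75278827, plus strand): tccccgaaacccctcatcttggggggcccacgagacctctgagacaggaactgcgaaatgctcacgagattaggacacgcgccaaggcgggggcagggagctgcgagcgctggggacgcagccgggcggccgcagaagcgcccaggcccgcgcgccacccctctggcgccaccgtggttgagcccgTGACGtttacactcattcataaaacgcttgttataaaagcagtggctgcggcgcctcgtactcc
EGR1 (chr5:138465229-138465478, plus strand): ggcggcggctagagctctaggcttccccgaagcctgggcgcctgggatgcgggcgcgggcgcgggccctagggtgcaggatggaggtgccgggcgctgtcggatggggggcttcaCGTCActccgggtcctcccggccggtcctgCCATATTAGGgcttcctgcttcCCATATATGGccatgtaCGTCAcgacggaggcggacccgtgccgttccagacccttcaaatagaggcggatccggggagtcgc

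All 8 promoters held TGACG on at least 1 strand, as did 24.6% of 35116 promoters of the same length. In *JUN* it began 123 bases before the start, and TGACATCA, a sequence that JUN and ATF2 pairs are known to bind, began 67 bases before the start. TGACATCA was in 2.61% of all promoters and in no other of the 8. *JUND* held TGACGTCA at 200 bases before the start, which contains TGACG on both strands and was in 1.85% of all promoters. *FOS* held TGACG 64 bases before the start. *EGR1* held TGACG at 135 and 66 bases and CArG boxes at 105 and 83 bases before the start, and CArG boxes were in 1.29% of all promoters. The AP-1 site TGANTCA, in 7.71% of all promoters, was found among the 8 only in *FOSL2*, at base 5 after the start. These matches describe letters in the window and not bound sites. Sequence outside the window was not searched, so that a gene without a match here may hold one elsewhere.

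The libraries held between 27933378 and 40498065 estimated counts. Levels are CPM, counts brought to a common library total with TMM scaling, and 3 counts correspond to 0.0741 to 0.107 CPM. Along the first principal component, with 44.7% of the variance, EtOH replicate 2 stood apart (score 84.2), with Tet replicate 2 next to it (47.3) and the other 4 between -55 and -1.81. EtOH replicate 2 also had the lowest share of mitochondrial counts, 4.12% against 5.855% to 10.01% in the others. *MYCN* itself had 157.9, 256.3 and 155.9 CPM in EtOH replicates 1 to 3 and 196.6, 200.1 and 145.4 CPM in Tet replicates 1 to 3. It did not pass the test (log2 fold change -0.07, SE 0.23, edgeR adjusted p = 0.956). Without EtOH replicate 2 it did not pass either (log2 fold change 0.21, edgeR adjusted p = 0.51). Directions below therefore refer to the labels and not to a measured change of *MYCN*. Neuroblastoma markers were present, with a summed level of 536.6 to 583.8 TPM (a level per exon length, on a common total) for 10 noradrenergic genes in libraries labelled EtOH and 622.9 to 699.8 TPM in those labelled Tet. In such bulk samples, fewer cells of a type and less RNA per cell cannot be told apart.

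Levels per length divided the genes into 3 tiers. *JUND* (mean 25.03 TPM over 6 libraries), *JUN* (23.97 TPM) and *EGR1* (13.63 TPM) formed the upper tier, with overlapping ranges of 18.27 to 34.31, 8.808 to 67.58 and 4.328 to 20.99 TPM. *FOSL2* (1.629 TPM), *FOS* (1.406 TPM), *BATF3* (1.123 TPM), *JUNB* (1.061 TPM) and *IER2* (0.831 TPM) followed, again with overlapping ranges. The highest *FOSL2* value, 2.026 TPM, lay below the lowest *EGR1* value. *FOSB*, with 0.167 TPM, and *FOSL1*, with a single read in EtOH replicate 2 and none in the other 5 libraries, were lowest, and *FOSB* at its highest (0.3094 TPM) was below *IER2* at its lowest (0.4239 TPM). By the one-sided 95% limit of 3 counts for a count of 0, *FOSL1* may have had up to 0.0741 to 0.107 CPM in those libraries, counting error only.

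**Figure D1:**
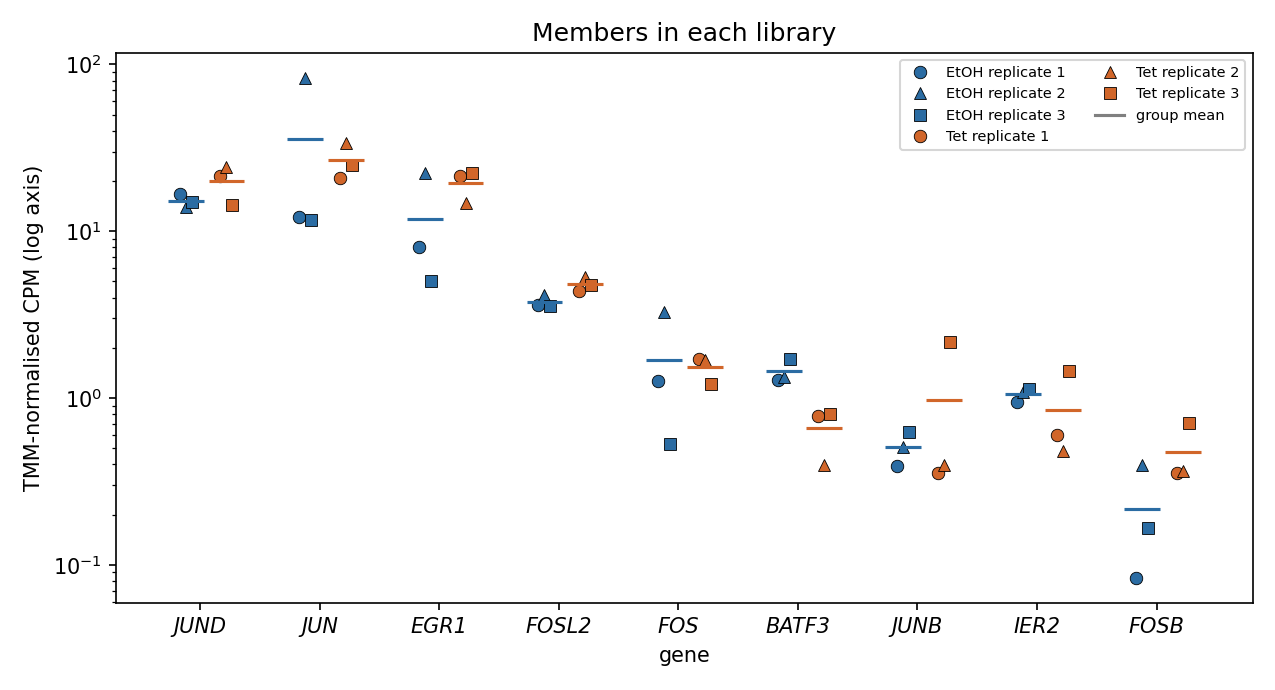
TMM-normalised CPM on a log axis of the 9 tested genes in each of the 6 libraries, ordered by mean TPM; circles, triangles and squares are replicates 1, 2 and 3, blue is EtOH, orange is Tet, and bars are group means. For *JUN*, *EGR1* and *FOS*, EtOH replicate 2 lies far above the other libraries labelled EtOH, whereas for *JUNB* and *IER2* it is Tet replicate 3 that lies above the other libraries labelled Tet.

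Tet was first compared with EtOH across all genes by the quasi-likelihood test of edgeR. None of the 9 tested genes passed an adjusted p of 0.05, against 0.147% of all genes called higher and 0.0891% called lower in libraries labelled Tet. At an unadjusted p under 0.05, 1 of the 9 was lower, *BATF3*, and 0 were higher, against 4.94% and 5.83% of all genes. The groups did not overlap for *FOSL2* (Tet above, as for 9.2% of all genes) and for *BATF3* (Tet below, as for 8.28%). The median log2 fold change of the 9 genes was 0.35, against -0.01 over all genes, and 5 of the 9 were above 0. For *JUN*, *FOS* and *JUNB* the direction turned when 1 library was left out, as given below for each gene.

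*JUN* (ENSG00000177606.8, GRCh38 chromosome 1, 58776845 to 58784048, minus strand) encodes the AP-1 subunit that activates most strongly. Its levels were 12.14, 82.89 and 11.74 CPM in EtOH replicates 1 to 3, against 20.84, 33.9 and 24.89 CPM in Tet replicates 1 to 3. EtOH replicate 2 was above every other library and EtOH replicates 1 and 3 were below every library labelled Tet, so that the EtOH mean of 35.59 ± 40.96 CPM (SD, n = 3), against 26.55 ± 6.686 CPM for Tet, lies near no EtOH library. In the fit of all 6 libraries *JUN* had a log2 fold change of -0.42 with an SE of 0.69 (edgeR adjusted p = 0.896). Without EtOH replicate 2 it was 1.16 (SE 0.22, edgeR adjusted p = 0.0299), and across all fits that left out 1 library it ranged from -0.87 to 1.16. Counting error is small beside this spread, since the 435 reads of *JUN* in EtOH replicate 1 have an exact Poisson 95% interval of 395 to 478, against 2298 reads in EtOH replicate 2.

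*JUND* (ENSG00000130522.6, chromosome 19, 18279694 to 18281622, minus strand), the JUN protein that many resting cells hold at a steady level, was measured at 16.82, 13.96 and 15.01 CPM in EtOH replicates 1 to 3 and at 21.55, 24.31 and 14.45 CPM in Tet replicates 1 to 3. EtOH replicate 2 was the lowest of the 6, unlike for *JUN*, and Tet replicate 3 lay among the libraries labelled EtOH. With a log2 fold change of 0.40 and an SE of 0.23, *JUND* did not pass the test (edgeR adjusted p = 0.591).

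*JUNB* (ENSG00000171223.6, chromosome 19, 12791486 to 12793315, plus strand), a JUN protein that can restrain JUN, had 0.3906, 0.505 and 0.6281 CPM in EtOH replicates 1 to 3 and 0.3545, 0.3949 and 2.164 CPM in Tet replicates 1 to 3. Tet replicate 3 alone was high, with 86 rounded counts (exact Poisson 95% interval 68.8 to 106) against 14 in Tet replicate 2 (7.65 to 23.5). All 6 libraries gave a log2 fold change of 0.95 with an SE of 0.72 (edgeR adjusted p = 0.718), which turned to -0.42 (edgeR adjusted p = 0.866) without Tet replicate 3. *JUNB* shares 14.2% of its exon bases with *HOOK2* on the other strand, and the counting did not use the strand. *HOOK2* had 128, 15 and 79 counts in EtOH replicates 1 to 3 and 62.5, 65.5 and 187 in Tet replicates 1 to 3, so that it was also highest in Tet replicate 3, and its part in the *JUNB* value was not tested.

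Within the JUN family, the share of transcripts differed between libraries of one label. *JUN* made up 27.26%, 75.25% and 28.5% of the summed TPM of *JUN*, *JUNB* and *JUND* in EtOH replicates 1 to 3. In Tet replicates 1 to 3 it made up 33.62%, 42.17% and 44.18%. *JUND* was the most abundant family member in every library but EtOH replicate 2, where its share was 23.81%. *JUNB* reached its largest share, 7.608%, in Tet replicate 3. The family total was 33.13, 89.8 and 30.9 TPM in EtOH replicates 1 to 3 and 48.24, 60.38 and 37.9 TPM in Tet replicates 1 to 3.

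**Figure D2:**
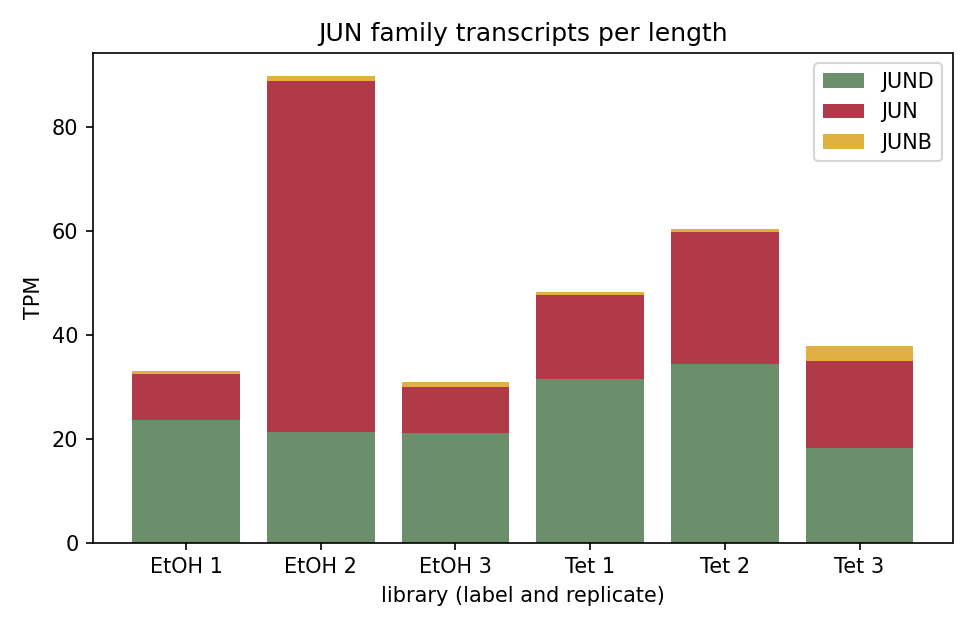
Stacked bars of the TPM of *JUND* (green), *JUN* (red) and *JUNB* (yellow) in each library, from 0. *JUN* takes 75.25% of the EtOH replicate 2 bar and 27.26% to 44.18% of the other 5, and the *JUND* part is between 18.27 and 34.31 TPM.

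*FOS* (ENSG00000170345.10, chromosome 14, 75278826 to 75282230, plus strand), the most quickly induced and shortest-lived partner of JUN, had 1.255, 3.282 and 0.5289 CPM in EtOH replicates 1 to 3. Its levels in Tet replicates 1 to 3 were 1.701, 1.692 and 1.208 CPM. The libraries labelled Tet lay inside the range of those labelled EtOH, which ran from 16 reads (exact Poisson 95% interval 9.15 to 26) in EtOH replicate 3 to 91 reads (73.3 to 112) in EtOH replicate 2. Tet over EtOH, *FOS* had a log2 fold change of -0.13 with an SE of 0.59 (edgeR adjusted p = 0.971), which turned to 0.77 with an SE of 0.45 (edgeR adjusted p = 0.368) without EtOH replicate 2.

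*FOSL2* (ENSG00000075426.12, chromosome 2, 28392448 to 28417317, plus strand), a FOS relative that lacks a strong activation domain and is made later and for longer, had 3.627, 4.148 and 3.537 CPM in EtOH replicates 1 to 3 and 4.36, 5.331 and 4.731 CPM in Tet replicates 1 to 3. Every library labelled Tet was above every library labelled EtOH, and EtOH replicate 2 did not stand out. However, a log2 fold change of 0.35 with an SE of 0.23 did not pass the test (edgeR adjusted p = 0.668). *FOSL2* held the largest share of FOS family TPM in 5 libraries, 50.45% to 71.61%, whereas *FOS* held 60.6% in EtOH replicate 2.

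*FOSB* (ENSG00000125740.14, chromosome 19, 45467995 to 45475179, plus strand), which also gives the long-lived form known as delta FosB in stimulated neurons, was measured with 3, 11 and 5 reads in EtOH replicates 1 to 3 and with 10, 13 and 28 in Tet replicates 1 to 3. Tet replicate 3 was highest and EtOH replicate 2 lay among the libraries labelled Tet. Its log2 fold change of 1.18 with an SE of 0.65 (edgeR adjusted p = 0.579) rested on few reads, and the exact Poisson 95% interval of the 3 reads in EtOH replicate 1 was 0.619 to 8.77. The log2 fold change was 1.94 without EtOH replicate 2, 0.77 without Tet replicate 3 and 0.74 without EtOH replicate 1, and passed in none of these fits. *FOSL1* (ENSG00000175592.9, chromosome 11, 65892049 to 65900573, minus strand), a FOS relative that is often high in invasive carcinoma cells, was not tested because of its single read.

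*BATF3* (ENSG00000123685.9, chromosome 1, 212686417 to 212699840, minus strand) encodes a bZIP protein that pairs with JUN proteins and is known for its role in dendritic cells. It had 1.283, 1.335 and 1.719 CPM in EtOH replicates 1 to 3 and 0.7799, 0.3949 and 0.8053 CPM in Tet replicates 1 to 3. Every library labelled Tet was below every library labelled EtOH, with means of 0.66 ± 0.23 and 1.446 ± 0.238 CPM (SD, n = 3 each). *BATF3* passed only the unadjusted threshold, with a log2 fold change of -1.13, an SE of 0.40 and an edgeR adjusted p of 0.358. The edgeR, limma or DESeq2 adjusted p ranged from 0.169 to 0.836 over the other settings, in all of which the log2 fold change stayed negative. Of 8 blood and endothelial marker genes, 0 reached a mean of 1 TPM, *CD3E* and *VWF* were at 0 in every library, and the 8 summed to 0.421 to 0.866 TPM in libraries labelled EtOH and 0.83 to 1.81 TPM in those labelled Tet.

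*EGR1* (ENSG00000120738.8, chromosome 5, 138465479 to 138469303, plus strand) encodes a zinc finger factor that is not part of AP-1 but is induced by the same signals. Its levels were 8.091, 22.29 and 4.992 CPM in EtOH replicates 1 to 3 and 21.52, 14.84 and 22.25 CPM in Tet replicates 1 to 3. EtOH replicate 2 lay at the top of the libraries labelled Tet, and EtOH replicates 1 and 3 were below all of them. With all 6 libraries *EGR1* had a log2 fold change of 0.73 and an SE of 0.49 (edgeR adjusted p = 0.669), and without EtOH replicate 2 these were 1.58 and 0.27 (edgeR adjusted p = 0.0198). Over the other settings the edgeR, limma or DESeq2 adjusted p ranged from 0.0198 to 0.978, and the log2 fold change was above 0 in every one.

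*IER2* (ENSG00000160888.7, chromosome 19, 13150411 to 13154911, plus strand), an immediate early gene for a nuclear protein without a bZIP domain, had 0.9486, 1.082 and 1.124 CPM in EtOH replicates 1 to 3 and 0.6026, 0.4795 and 1.46 CPM in Tet replicates 1 to 3. As for *JUNB*, Tet replicate 3 was the highest of the 6, and for *IER2* the other libraries labelled Tet were the lowest. *IER2* had a log2 fold change of -0.30 with an SE of 0.48 (edgeR adjusted p = 0.894), and over the fits that left out 1 library it ranged from -0.95 (edgeR adjusted p = 0.56) without Tet replicate 3 to -0.01 (edgeR adjusted p = 0.999) without Tet replicate 2. *IER2* shares 52.2% of its exon bases with 2 antisense genes, so that its counts are uncertain. The antisense gene ENSG00000267598, with 30.7% of the bases, had 22.5 counts in Tet replicate 3 and 4.5 to 11.5 in the other 5 libraries. The remaining 8 genes of the 10, apart from *JUNB* and *IER2*, share no exon base with another gene.

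**Figure D3:**
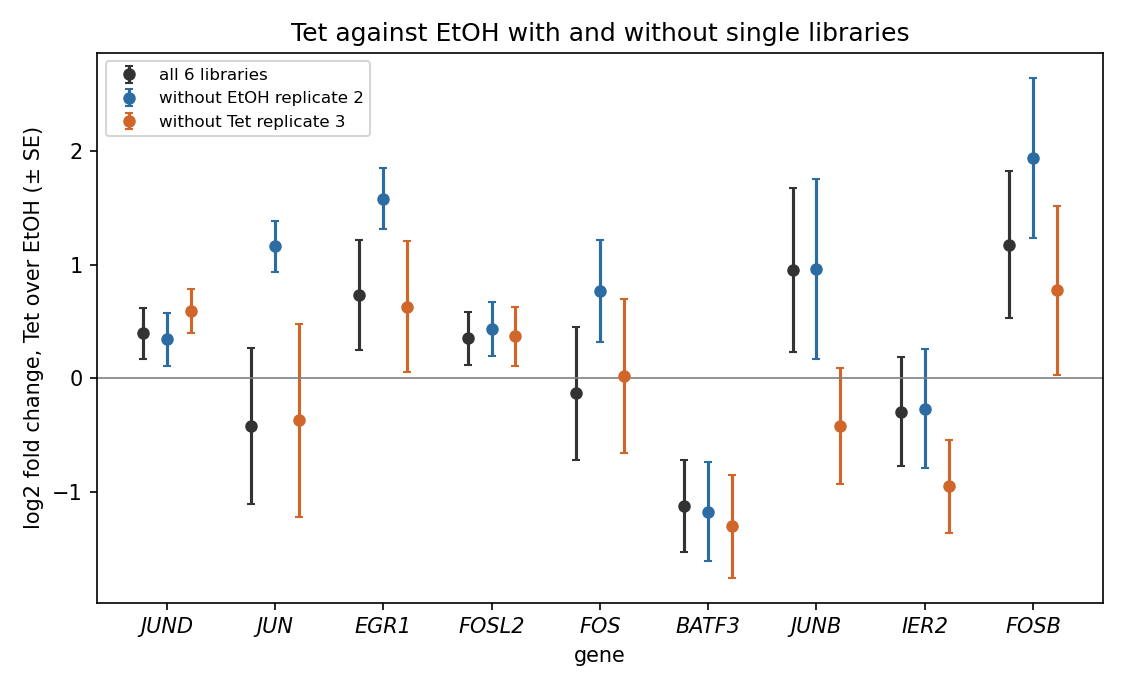
Log2 fold change of Tet over EtOH with its SE for the 9 tested genes, in the fit of all 6 libraries (black), without EtOH replicate 2 (blue) and without Tet replicate 3 (orange). *JUN* moves from -0.42 to 1.16 and *FOS* from -0.13 to 0.77 without EtOH replicate 2, *JUNB* moves from 0.95 to -0.42 without Tet replicate 3, and *JUND*, *FOSL2* and *BATF3* keep their sign.

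Leaving out EtOH replicate 2 changed the result for 2 of the 9 genes. *JUN* and *EGR1* then passed the adjusted threshold as higher in libraries labelled Tet, against 1.51% of 23935 genes, and 0 were lower, against 1.38% of genes. This library held the highest *JUN* level of all 6 and the highest *EGR1* level of the 3 labelled EtOH, so that leaving it out lowers the EtOH mean of both genes by construction. Its status as the library to leave out came from the data and not from the labels, and both fits are therefore given side by side.

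The libraries of one label were then compared with each other. The spread of a gene was taken as the ratio of its highest to its lowest CPM among the 3 libraries of a label, after 0.5 CPM was added to each. The addition lowers the ratios of genes with few reads. Without it, *FOSB* within EtOH (4.74) and *BATF3* within Tet (2.039) would also have reached 2, and *FOSB* would have passed *EGR1* (4.465). Within EtOH, 3 of the 9 genes had a ratio of at least 2, as did 18.3% of all genes. These were *JUN* (6.815), *EGR1* (4.15) and *FOS* (3.676), against a median of 1.473 and a 99th percentile of 4.013 over all genes. The ratio of *JUN* was above that of 99.84% of genes, that of *EGR1* above 99.16% and that of *FOS* above 98.44%. *JUND* (1.198), *FOSL2* (1.151) and *IER2* (1.121) were by contrast below the median of all genes.

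Within Tet, 2 of the 9 genes had a ratio of at least 2, as did 10.7% of all genes. These were *JUNB* (3.118, above 98.46% of genes) and *IER2*, which lay just at the limit (2.001) and fell under it with another scaling. The median over all genes was 1.386. *JUND* (1.66), *JUN* (1.612) and *EGR1* (1.483) were above it, higher than 75.07%, 71.93% and 60.85% of genes. *FOS* (1.289) was below it, higher than 36.21%. EtOH replicate 2 was the highest EtOH library for 5 of the 9 genes, *FOS*, *FOSB*, *FOSL2*, *JUN* and *EGR1*, and for 41.7% of all genes. It was the highest of all 6 libraries for 3 of the 9, *FOS*, *JUN* and *EGR1*, and for 24.8% of all genes. For *EGR1* it was almost level with Tet replicate 3 (22.29 against 22.25 CPM). Tet replicate 3 was the highest of the 6 for another 3 of the 9, *FOSB*, *JUNB* and *IER2*, and for 21.2% of all genes.

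**Figure D4:**
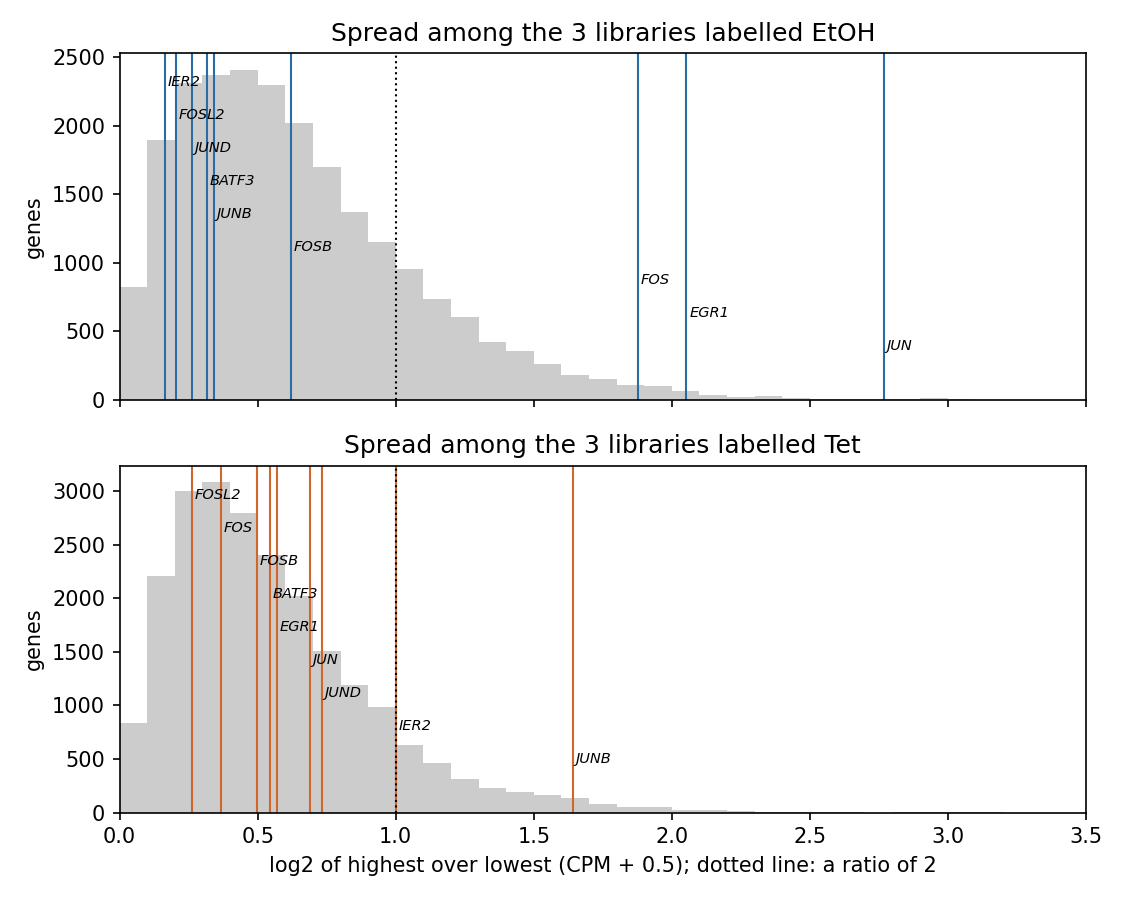
Histograms of the spread of 22443 genes among the 3 libraries labelled EtOH (top) and Tet (bottom), as the log2 ratio of highest to lowest CPM + 0.5, with a line for each of the 9 genes and a dotted line at a ratio of 2. *JUN*, *EGR1* and *FOS* lie in the right tail among libraries labelled EtOH, and *JUNB* does among those labelled Tet.

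Other immediate early genes were then described in EtOH replicate 2, in a list chosen with earlier results of these data known. Of a list of 22, 15 were tested. EtOH replicate 2 was the highest of the 6 libraries for 11 of the 15, against 24.8% of all genes. In some of the 11 the lead was small, as in *DUSP1* (5.41 against 5.246 CPM in Tet replicate 1) and *KLF4* (1.226 against 1.132 CPM in Tet replicate 3). A ratio of at least 2 within EtOH was reached by 7 of the 15, against 18.3% of all genes. *EGR3*, a relative of *EGR1*, had 0.7254, 20.38 and 0.6942 CPM in EtOH replicates 1 to 3 and 1.524, 3.385 and 1.762 CPM in Tet replicates 1 to 3. The transcriptional repressor *KLF10* had 13.06, 46.2 and 14.84 CPM in EtOH replicates 1 to 3 and 26.48, 34.72 and 23.13 CPM in Tet replicates 1 to 3. The short-lived survival factor *MCL1* had 425, 1070 and 429.6 CPM and 697, 890.1 and 529.3 CPM in the same order. *EGR3*, *KLF10* and *MCL1* were chosen after their values were seen. In each of these 3, as in *JUN*, EtOH replicate 2 was highest, Tet replicate 2 next, and EtOH replicates 1 and 3 lowest. *KLF10* had a log2 fold change of 0.19 (edgeR adjusted p = 0.939) with all 6 libraries and of 1.02 (edgeR adjusted p = 0.036) without EtOH replicate 2.

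**Figure D5:**
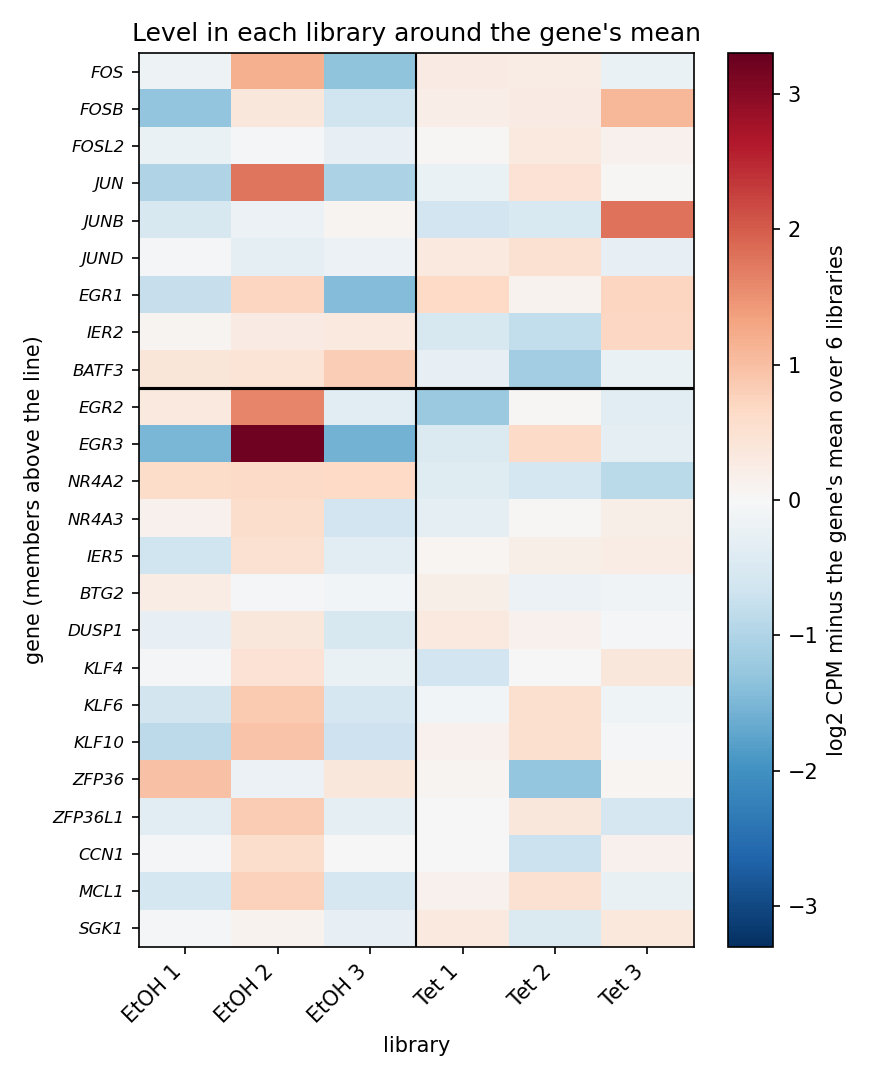
Log2 CPM minus the gene's mean over the 6 libraries, for the 9 tested genes (above the line) and 15 other immediate early genes (below it), with red above and blue below the mean. The EtOH replicate 2 column is the reddest for *FOS*, *JUN*, *EGR1* and 11 of the 15 other genes, *NR4A2* is red in all 3 libraries labelled EtOH, and *JUNB* is reddest in Tet replicate 3. For *EGR1*, EtOH replicate 2 (0.707) and Tet replicate 3 (0.704) are almost level.

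Sums over several further lists were highest in EtOH replicate 2, but not for every member. A list of 11 mesenchymal state genes summed to 342.6 TPM in EtOH replicate 2 and 320.3 TPM in Tet replicate 2, against 186.7 to 211 TPM in the other 4 libraries, and 9 of the 11 had a mean of at least 1 TPM. *VIM* (151.5 and 110.4 TPM) and *TWIST1* (97.16 and 145.8 TPM) made up most of the 2 high sums. Members differed, since *PRRX1* had 48.89 TPM in EtOH replicate 2 but 18.32 TPM in Tet replicate 2. In EtOH replicate 2, *CD44* was the lowest of the libraries labelled EtOH. The heat shock list, 10 genes of protein folding, summed to 3626 TPM in EtOH replicate 2 against 2237 to 2669 TPM in the others. *HSP90AA1* alone gave 2502 TPM of it, against 1539 to 1912 TPM in the others. *HSPD1*, *HSPE1*, *HSPH1* and *DNAJB1* also had their highest TPM in EtOH replicate 2. By contrast, *HSPA8* had it in Tet replicate 2, and *BAG3* and *HSPB1* in Tet replicate 3. The upstream kinases and factors described below also had their highest sum in EtOH replicate 2 (583.7 TPM, against 362.1 to 522.7 TPM in the others). So did the other bZIP partners (74.02 TPM, against 44.44 to 65.26 TPM). The noradrenergic, ERK, AP-1 and EGR1 target, and blood and endothelial lists did not. The part of any of these lists, and of the low mitochondrial share, in the *JUN*, *FOS* and *EGR1* values was not tested.

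In the whole list of other immediate early genes, 0 of the 15 passed the adjusted threshold and the median log2 fold change was -0.12. *NR4A2*, an orphan nuclear receptor needed by dopamine neurons, had the lowest p of the list. It was measured at 2.846, 2.885 and 2.942 CPM in EtOH replicates 1 to 3 and at 1.382, 1.213 and 0.9815 CPM in Tet replicates 1 to 3. Here the libraries of a label lay close together and the groups did not overlap, but the log2 fold change of -1.28 (SE 0.29) had an edgeR adjusted p of 0.142. With DESeq2 *NR4A2* passed the threshold (log2 fold change -1.29, DESeq2 adjusted p = 0.0162), and over all settings the adjusted p of edgeR, limma or DESeq2 reached up to 0.535. *EGR2*, another *EGR1* relative, was next (log2 fold change -1.26, edgeR adjusted p = 0.531), with its highest level in EtOH replicate 2. *IER3* and *GADD45B* were listed at 0 in every library, which in counts of unique alignments need not mean that they were silent.

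Among 9 other bZIP partners, 5 were tested, 0 passed in either direction, and the median log2 fold change was -0.11. *ATF2*, the usual ATF partner of JUN, was the most abundant at 98.23 ± 17.0 CPM for EtOH and 94.55 ± 16.34 CPM for Tet (SD, n = 3 each). The stress-induced *ATF3* had a log2 fold change of 0.27 (edgeR adjusted p = 0.911), and *ATF7* of -0.30 (edgeR adjusted p = 0.809). *ATF7* shares exon bases with antisense and readthrough genes and is uncertain. *BATF* and *BATF2*, the closest relatives of *BATF3*, were listed at 0 in every library.

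Of 22 upstream kinases and factors, 21 were tested. None passed the adjusted threshold, and the median log2 fold change was -0.0036. *RPS6KA2*, an S6 kinase that ERK activates, had 11.44 ± 0.929 CPM with EtOH and 20.48 ± 3.003 CPM with Tet (SD, n = 3 each), without overlap. At a log2 fold change of 0.84 and an SE of 0.19 it did not pass (edgeR adjusted p = 0.142), whereas it passed without EtOH replicate 2 (0.90, edgeR adjusted p = 0.0403). *MAPK10*, the neuronal JUN kinase, had 185.0 ± 23.55 and 255.1 ± 15.51 CPM, also without overlap (log2 fold change 0.46, edgeR adjusted p = 0.303). *SRF*, the factor of the CArG box, had 3.01 ± 0.198 and 2.883 ± 0.594 CPM.

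A list of 13 genes that ERK signalling induces, many of which in turn restrain it, had the lowest median of the 6 context lists, but none of its 12 tested genes passed the adjusted threshold. The median log2 fold change was -0.38 against -0.01 over all genes, and 2 of the 12 were above 0. At an unadjusted p under 0.05, 3 of the 12 were lower and 0 higher, against 4.94% and 5.83% of all genes, and 4 of the 12 were below EtOH without overlap, against 8.28%. *SPRED1*, an inhibitor of RAS signalling, had 37.11, 50.5 and 43.51 CPM in EtOH replicates 1 to 3 and 26.76, 29.67 and 27.78 CPM in Tet replicates 1 to 3 (log2 fold change -0.64, SE 0.17, edgeR adjusted p = 0.197). *SPRY1*, a further inhibitor, had 9.43, 7.033 and 8.298 CPM and 6.203, 3.469 and 4.756 CPM in the same order (log2 fold change -0.78, edgeR adjusted p = 0.338). In *SPRED1* EtOH replicate 2 was highest and in *SPRY1* it was the lowest of the libraries labelled EtOH.

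Many known AP-1 and EGR1 targets were scarcely detected. Of 18 such genes only 6 had enough counts to be tested, 4 had a mean of at least 1 TPM, and the matrix protease gene *MMP3* and the growth factor gene *AREG* were listed at 0 in every library. *CCND1*, the gene of cyclin D1, had the largest log2 fold change of the 6. It had 151.4, 295.2 and 158.5 CPM in EtOH replicates 1 to 3 and 532.6, 688.5 and 421 CPM in Tet replicates 1 to 3, without overlap. *CCND1* had a log2 fold change of 1.44 with an SE of 0.30 (edgeR adjusted p = 0.11), and of 1.83 (edgeR adjusted p = 0.00654) without EtOH replicate 2. *CCND1* shares 10.4% of its exon bases with the antisense gene *LTO1*. *CD44*, an adhesion receptor, had a log2 fold change of -0.39 (edgeR adjusted p = 0.618), and the median of the 6 tested genes was -0.24.

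The heat shock genes served as a check of stress signals other than AP-1. Of 10 listed, 8 were tested, 0 passed, and the median log2 fold change was -0.08. *BAG3*, a co-chaperone, had 3.569 ± 0.859 CPM with EtOH and 6.056 ± 1.168 CPM with Tet (SD, n = 3 each), at a log2 fold change of 0.77 (edgeR adjusted p = 0.365). *HSPD1*, the mitochondrial chaperonin, had 827 ± 159.4 and 632.6 ± 50.3 CPM (log2 fold change -0.39, edgeR adjusted p = 0.481). *HSPA1A* and *HSPA1B*, near-identical copies of each other, were listed at 0, and reads that align to both are not counted.

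Finally, the genes closest in pattern to *JUN*, *EGR1* and *FOS* were sought among 10086 genes with a mean of at least 5 CPM, by the mean absolute distance between log2 levels, each centred on its mean over the 6 libraries. Closest to *JUN* was *OSBPL10*, an oxysterol-binding protein gene, at a distance of 0.0897. It had 9.095, 64.13 and 9.323 CPM in EtOH replicates 1 to 3 and 17.37, 23.07 and 17.19 CPM in Tet replicates 1 to 3, nearly the same profile as *JUN*. The small RNA genes *SNORD11* (0.138) and *RNU6-1242P* (0.189) followed. Among those close to *EGR1* were *NQO1* (0.269) and *TXNIP* (0.289), and closest to *FOS* were a *Y_RNA* copy (ENSG00000207086, 0.258), *AK6* (0.266) and *RNF32-AS1* (0.267). Over 6 libraries, these names describe the profile only.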

How the data were processed

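The deposited tables, 1 for each library, held estimated counts by gene, which the authors made from trimmed reads aligned with STAR 2.7.1a to GRCh38. Per the file headers, featureCounts 1.6.4 divided a read pair that overlapped several genes among them, took unique alignments and did not use the strand, whereas the labels name version 1.5.1 and the study's methods other options. Of genes in a library, 12.3% to 14.73% had a value that was not whole. The planned test had assumed whole counts, and values were rounded. The 92 spike-in sequences were at 0 in every library and left out. Symbols were found for 99.65% of genes. Reads were not re-aligned, and back-splice reads are not separated in these values.

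Genes were kept with filterByExpr, scaled by TMM and compared with edgeR 4.0.16 (quasi-likelihood F test, R 4.3.3), without a replicate block, with Benjamini-Hochberg adjustment over all genes tested and a threshold of 0.05. SE is the size of the log2 fold change divided by the square root of F. TPM was computed from counts and exon length, and Poisson intervals are exact and cover counting error only. The fit was tested on simulated counts. The genes and lists were chosen with earlier results of these data known. Besides the 10 genes, the text names the 2 tested genes with the lowest p of each of 6 context lists and the 3 genes closest in pattern to *FOS*, *JUN* and *EGR1*, of which 1 is not reported here, and any other gene was chosen after its values were seen or is a marker or an overlapping gene. Alternatives were RLE scaling, no filter, at least 10 counts in every library, limma-voom (limma 3.58.1), DESeq2 1.42.0, a replicate block, and each library left out. All 6 libraries were sequenced deeply, to 27933378 counts or more.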

Additional observations from a re-analysis of the deposited data

How the results depend on the processing

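Of all genes, 33 were higher and 20 lower in libraries labelled Tet with all 6 libraries. The counts were 185 and 117 without a filter, 282 and 203 with DESeq2, and 421 and 254 with the replicate block, and 13 genes were lower with RLE scaling. Leaving out 1 library gave 0 to 361 higher and 0 to 331 lower genes, of which the top values are those without EtOH replicate 2 and the others were at most 1. Of the AP-1 and immediate early genes, 0 to 2 were higher when a library was left out, 2 only without EtOH replicate 2. In the 6 context lists, 1 gene was higher without a filter, 2 were with DESeq2, 2 with the block and 0 to 3 with a library left out, and 1 was lower with DESeq2 and 1 with the block. The log2 fold change of *FOS* turned to 0.22 with limma-voom and 0.16 with the block, and ranged from -0.59 to 0.77 with a library left out. That of *JUN* turned to 0.23 and 0.19, and ranged from -0.87 to 1.16. That of *JUNB* ranged from -0.42 to 1.33 and that of *ATF3* from -0.0289 to 0.70. With RLE scaling, 1 gene and not 2 had a ratio of at least 2 within Tet. The cause of these shifts was not tested. *FOSB* was not tested with a minimum of 10 counts in every library. Deviations of same-numbered libraries correlated at 0.0603, 0.51 and 0.219, and those of different-numbered libraries at -0.452 to 0.379. The value of 0.51, for EtOH replicate 2 and Tet replicate 2, was the highest. These values do not settle whether the numbers pair the libraries, and a shared batch was not tested. The main fit used no block. The block changed no call of an AP-1 or immediate early gene but brought *SPRED1*, *RPS6KA2* and *CCND1* past the threshold (edgeR adjusted p = 0.0403, 0.0369 and 0.000875). With DESeq2, *NR4A2*, *RPS6KA2* and *CCND1* passed (DESeq2 adjusted p = 0.0162, 0.0267 and 0.00245), and without a filter *CCND1* did (edgeR adjusted p = 0.00121). Comparisons with single settings were made for the tested AP-1 and immediate early genes and the 2 lowest-p genes of each context list. None of these genes passed in the main fit. In all, 231 comparisons kept their call and direction, 10 gained a call in the same direction and 9 turned. One that turned, *JUN* without EtOH replicate 2, also gained a call. Depth limits *FOSL1*, *FOSB*, *JUNB*, *IER2*, *BATF3* and *FOS*, with 0 to 91 counts in a library.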
